A study of Mus musculus with 12 samples.

Results

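Serpine2, Plau, Plaur and Plat are 4 genes of plasminogen activation, and they were picked by symbol among the 31053 genes measured in single-nucleus RNA-seq of mouse lung. Each symbol matched 1 row. Plasminogen is a circulating zymogen that is cut to plasmin, a protease that degrades fibrin and, with other proteases, extracellular matrix. Plat encodes tissue-type plasminogen activator and Plau encodes urokinase-type plasminogen activator, the proteases that make this cut. Plaur encodes the cell surface receptor that holds urokinase, and Serpine2 encodes protease nexin-1, a secreted serpin that inhibits urokinase, tissue-type activator, plasmin and thrombin. In the lung the balance of activators and inhibitors sets how fast fibrin is cleared after injury, which is why the family is studied in fibrosis.

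Nuclei came from the frozen lungs of 12 C57BL/6J mice, 1 library a mouse, in 4 groups of 3. The mice were 7 weeks old when PBS or bleomycin, which injures alveoli and is followed by fibrosis, was put into the trachea. From day 5 they had daily gavage for 5 days with NVP-BHG712, an inhibitor of the receptor tyrosine kinase EphB4, or with its vehicle of N-methyl-2-pyrrolidone and PEG300, and lungs were taken on day 14. The groups are PBS_vehicle (PBS, then vehicle), PBS_NVP (PBS, then inhibitor), Bleo_vehicle (bleomycin, then vehicle) and Bleo_NVP (bleomycin, then inhibitor). No group carried a transgene or deletion, and all 12 lungs passed through the same sort of DAPI-positive nuclei, so cytoplasmic RNA was largely left behind.

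After filtering, 44611 nuclei were kept, between 1168 and 11867 a library, from libraries of 3556084 to 61947690 unique molecular identifiers (UMIs, counts of distinct RNA molecules). Lung classes were found by their markers, 19 in all, and each class name is to be read as "like" that cell type. The Bleo_vehicle libraries stood apart, with a median mitochondrial share of 2.56%, 1.32% and 0.668% against at most 0.0496% in the other 9. They also differed in batch: all 3 Bleo_NVP libraries came from run 4, the Bleo_vehicle libraries from batches 6, 6 and 7, and the PBS libraries from runs 1, 2 and 3, so in the comparisons with bleomycin the run cannot be told apart from the treatment. Of 48838 barcode sequences, 324 occurred in more than 1 library.

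The genes lie on separate chromosomes of GRCm38 in the GENCODE M21 annotation. Serpine2 (ENSMUSG00000026249) spans positions 79794197 to 79861180 of chromosome 1 on the minus strand, Plaur (ENSMUSG00000046223) spans 24462484 to 24475968 of chromosome 7 on the plus strand, Plat (ENSMUSG00000031538) spans 22757727 to 22782844 of chromosome 8 on the plus strand and Plau (ENSMUSG00000021822) spans 20836660 to 20843385 of chromosome 14 on the plus strand. RefSeq promoters on GRCm38.p6 were at hand for 2 of the 4 members. They are shown because Serpine2 gave the single call among the members and Plaur the smallest p-values short of one. Each is the 250 bases before the RefSeq start, 5′ to 3′, with capitals for TGANTCA and GGGCGG on either strand, whose matches can overlap each other. The first is the letter pattern bound by AP-1 factors and the second is a GC box. The Plaur window is chr7:24462233-24462482 on the plus strand and the Serpine2 window is chr1:79858666-79858915 on the minus strand, inside the longer GENCODE gene.
Plaur: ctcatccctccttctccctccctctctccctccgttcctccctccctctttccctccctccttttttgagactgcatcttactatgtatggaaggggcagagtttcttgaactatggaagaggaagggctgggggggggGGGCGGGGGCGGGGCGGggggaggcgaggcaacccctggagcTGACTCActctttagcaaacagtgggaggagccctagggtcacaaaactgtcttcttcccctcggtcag
Serpine2: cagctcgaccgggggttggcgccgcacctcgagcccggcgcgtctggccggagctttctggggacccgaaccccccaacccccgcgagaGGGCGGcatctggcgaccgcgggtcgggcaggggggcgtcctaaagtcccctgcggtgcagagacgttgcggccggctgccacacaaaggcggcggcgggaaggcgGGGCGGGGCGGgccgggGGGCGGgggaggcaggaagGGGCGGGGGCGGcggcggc
The Plaur window held 1 TGANTCA and 3 GGGCGG at 59.6% G and C. The Serpine2 window held 0 TGANTCA and 6 GGGCGG at 78.8% G and C. Of 32851 mouse promoters of this length, 6.75% held TGANTCA and 32.7% held GGGCGG. A match is a run of letters and was not tested as a site.

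The 4 genes were highest in different cell classes: Serpine2 in fibroblasts, Plat in arterial endothelium, Plaur in alveolar macrophages and Plau in lymphatic endothelium and interstitial macrophages. Levels are in CPM, the UMIs of the gene for every 1000000 UMIs of the class in a library, as mean ± SD over the libraries with at least 20 nuclei of the class. They describe each gene over classes, carry no test, and are not compared between genes, since gene length was not corrected for.

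**Figure D1:**
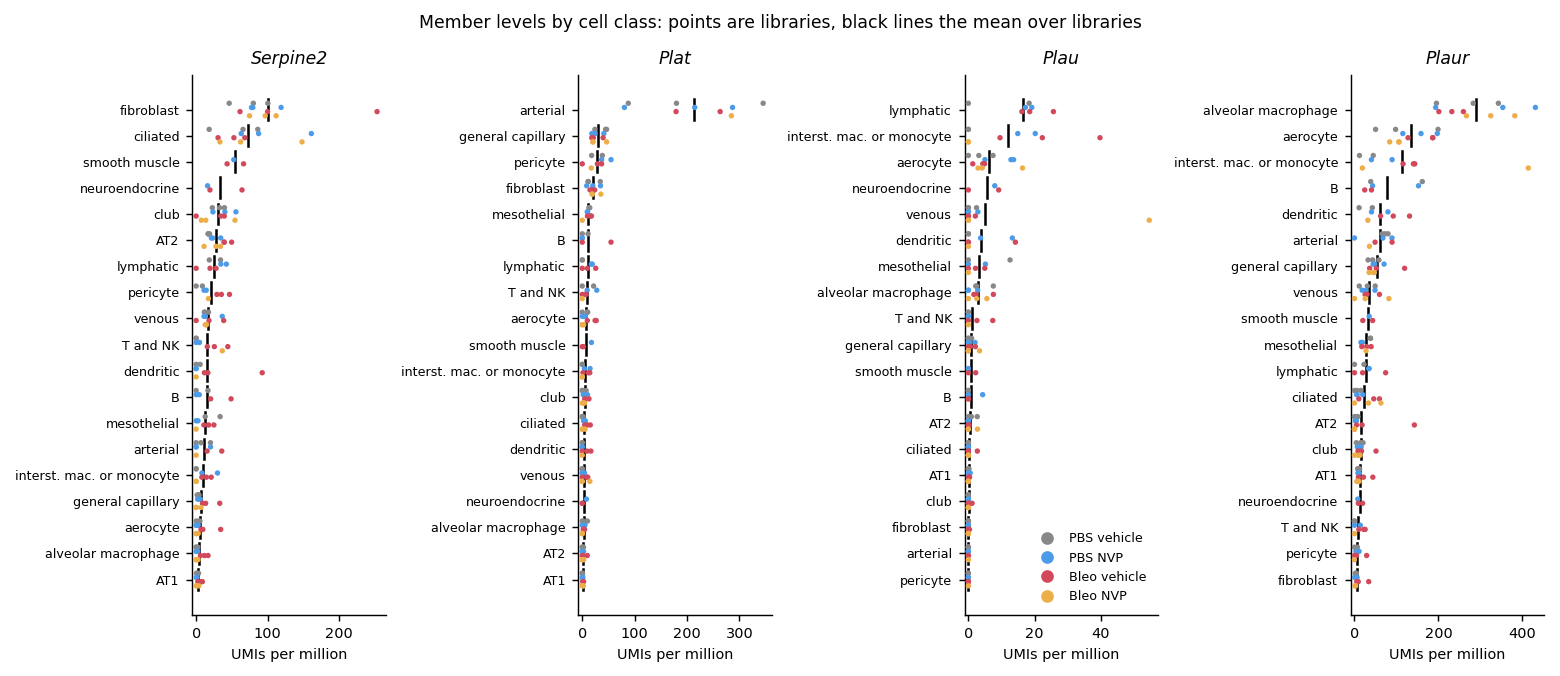
Level of each gene in 19 cell classes, in CPM of the class; each point is a library with at least 20 nuclei of the class, coloured by group, and each black line the mean over libraries. Classes are sorted by their mean, with Serpine2 led by fibroblasts at 100.001, Plat by arterial endothelium at 214, Plau by lymphatic endothelium at 16.5 and Plaur by alveolar macrophages at 289 CPM.

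Serpine2, the inhibitor, stood at 100.001 ± 52.5 CPM in fibroblasts (12 libraries, from 46.2 to 253 CPM). Fibroblasts held 65.4% of its UMIs in named classes against 24.8% of all UMIs of those classes. Ciliated cells followed at 73.1 ± 43.6 CPM, smooth muscle at 54.1 ± 11.6 CPM (3 libraries), neuroendocrine cells at 33.1 ± 26.9 CPM (3 libraries), club cells at 30.2 ± 17.4 CPM and AT2 cells, the surfactant-making alveolar epithelium, at 27.7 ± 11.6 CPM. No step from one class to the next in this order was larger than the sum of the 2 SDs. At the low end were alveolar macrophages at 3.54 ± 5.35 CPM and AT1 cells, the flat gas-exchange epithelium, at 2.44 ± 2.81 CPM. Serpine2 therefore differed widely between the 2 alveolar epithelial classes while its top classes were not separated beyond their spread.

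Plat, the tissue-type activator, stood at 214 ± 91.0 CPM in arterial endothelium (9 libraries, from 80.6 to 346 CPM). This class held 0.694% of UMIs and 15.03% of the Plat UMIs. The next class, general capillary endothelium, was at 30.4 ± 12.0 CPM, and the gap between them was 1.78 times the sum of their SDs. Pericytes followed at 28.9 ± 16.9 CPM and fibroblasts at 20.8 ± 9.49 CPM. Fibroblasts, being many, held the largest share of its UMIs, 40.3%. Other endothelium was lower, with aerocytes, the capillary cells of the gas-exchange surface, at 7.92 ± 9.17 CPM, and venous endothelium at 3.15 ± 5.16 CPM. AT1 cells were lowest at 0.82 ± 0.77 CPM. By library, arterial nuclei gave 346, 180 and 88.0 CPM in the 3 PBS_vehicle lungs, 287, 215 and 80.6 CPM in PBS_NVP, 179 and 263 CPM in Bleo_vehicle lungs 2 and 3, and 285 CPM in Bleo_NVP lung 2. The groups overlapped, and only 1 Bleo_NVP library had 20 arterial nuclei, so no test was run in that class.

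Plaur, the urokinase receptor, stood at 289 ± 78.3 CPM in alveolar macrophages (12 libraries, from 193 to 431 CPM). This class held 47.3% of its UMIs and 8.49% of all UMIs. Aerocytes came next at 135 ± 49.7 CPM with 18.0% of its UMIs, and the gap was 1.21 times the sum of the SDs. Interstitial macrophages or monocytes followed at 113 ± 123 CPM (9 libraries), B cells at 76.8 ± 62.6 CPM (6 libraries), dendritic cells at 61.5 ± 38.5 CPM (8 libraries) and general capillary endothelium at 52.7 ± 23.5 CPM. Within the endothelium the order was aerocytes, arterial (61.2 ± 29.0 CPM), general capillary, venous (34.0 ± 22.5 CPM) and lymphatic (26.5 ± 25.4 CPM), with the last 4 inside each other's spread. Fibroblasts were the lowest of all 19 classes, at 6.27 ± 9.03 CPM. Serpine2 and Plaur thus sat at opposite ends in fibroblasts, and over the 19 class means of log2(CPM + 1) they had a Pearson r of -0.61, a description only, as all class means share the same 12 libraries.

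Plau, urokinase itself, was sparse, with 220 UMIs in all 12 lungs. Lymphatic endothelium gave 16.5 ± 7.88 CPM from 16 UMIs (7 libraries), interstitial macrophages or monocytes 11.9 ± 13.9 CPM from 61 UMIs (9 libraries), and aerocytes 6.35 ± 5.203 CPM from 54 UMIs (12 libraries). These 3 classes were not separated beyond their spread. Interstitial macrophages or monocytes held 28.0% of its UMIs, aerocytes 24.8% and alveolar macrophages 15.6% (34 UMIs, 2.90 ± 2.67 CPM). Fibroblasts held 3 UMIs in 9915 nuclei, and arterial endothelium and pericytes held 0. Aerocytes thus carried UMIs of both the receptor and its ligand, as did other classes, among them both macrophage classes.

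The genes whose class pattern was most like each member were ranked by Pearson r over the 19 class means, among 12373 genes. For Plat these were Esr2 (r = 0.86), Gja5 (0.84), Hoxa3 (0.77), Cxcl12 (0.76) and Pknox2 (0.76). Gja5 and Cxcl12 are among the markers that named the arterial class. For Serpine2 they were Dhtkd1 (0.84), Rps6ka6 (0.82), Cacna2d1 (0.81), Ptk7 (0.81) and Magi2 (0.81). For Plaur they included Map3k8 (0.80), a kinase of inflammatory signalling, Gtf2h2 (0.79), Pitpna (0.78) and Tbc1d5 (0.77). For Plau they were Htr2b (0.80), Kctd12 (0.77), Ip6k3 (0.77), Hapln1 (0.75) and Ttc5 (0.73).

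Fibroblasts were split into subclusters, and those that could be named held the members unevenly. Others, of 2554, 1644, 312, 125 and 80 nuclei, stayed unnamed and are part of the fibroblast sums tested below. The subcluster of 2554 nuclei was led by haemoglobin and mitochondrial genes. Rtkn2 and Rasgrf2, which also led AT1 nuclei, were among the leading genes of the 312, and Acoxl and Gm39094, which also led AT2 nuclei, of the 125. Serpine2 was at 251 ± 452 CPM in peribronchial fibroblasts (10 libraries), 230 ± 105 CPM in fibrotic fibroblasts (4 libraries), 87.4 ± 25.4 CPM in alveolar fibroblasts (11 libraries) and 42.4 ± 52.2 CPM in adventitial fibroblasts (6 libraries). In the fibrotic subcluster, led by Hmga2, Inhba and Has2, it stood at 309, 189 and 322 CPM in the 3 Bleo_vehicle lungs and 102 CPM in PBS_NVP lung 1, the only other library with 20 such nuclei. In the alveolar subcluster the Bleo_vehicle lungs with enough nuclei, 2 and 3, were at 50.5 and 96.2 CPM, inside the PBS_vehicle range of 49.0 to 97.9 CPM. Bleo_vehicle lung 1 had 19 alveolar nuclei among its 502 fibroblasts.

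Plaur, low over fibroblasts as a whole, was at 29.1 ± 7.87 CPM in the fibrotic subcluster, 16.5 ± 39.1 CPM in the peribronchial, 15.9 ± 4.28 CPM in the adventitial and 1.61 ± 1.06 CPM in the alveolar. Among libraries with at least 20 such nuclei, its lowest fibrotic value, 22.6 CPM, lay above its highest alveolar value, 2.97 CPM. The fibrotic values rested on 4 UMIs in PBS_NVP lung 1 and 6, 7 and 8 UMIs in the Bleo_vehicle lungs. Bleo_vehicle lung 1, left out of the alveolar values with 19 nuclei, was at 26.9 CPM there from 2 UMIs. Plat was at 53.0 ± 21.9 CPM in adventitial, 50.1 ± 27.2 CPM in fibrotic, 26.8 ± 28.0 CPM in peribronchial and 15.9 ± 13.2 CPM in alveolar fibroblasts. Plau had 2 UMIs in adventitial fibroblasts and 0 in the other 3. The fibrotic subcluster held 84, 113 and 108 nuclei in the Bleo_vehicle lungs and from 5 to 47 in each of the others, so a fibroblast sum also moves with how many of each kind it holds.

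**Figure D2:**
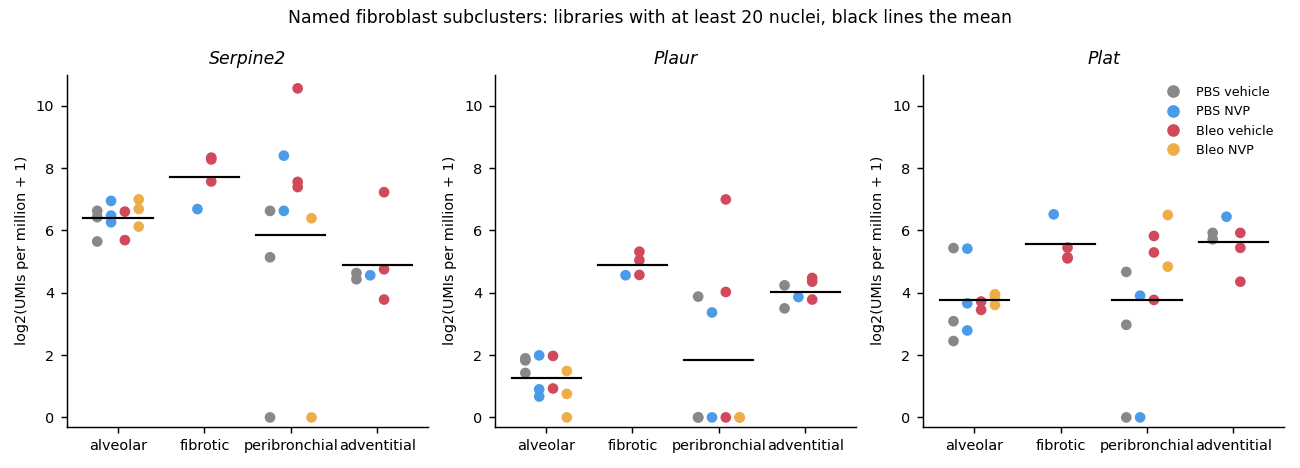
Serpine2, Plaur and Plat in the named fibroblast subclusters, as log2(CPM + 1); each point is a library with at least 20 nuclei of the subcluster and each black line the mean of the plotted log2 values. Plaur sat lowest in alveolar fibroblasts (1.61 ± 1.06 CPM) and highest in fibrotic fibroblasts (29.1 ± 7.87 CPM).

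The peribronchial Serpine2 value was raised by 1 nucleus. In Bleo_vehicle lung 1 a single peribronchial nucleus with 39630 UMIs held 106 of the 224 fibroblast Serpine2 UMIs of that library. Without it the peribronchial level of the library went from 1504 to 329 CPM and its fibroblast level from 253 to 140 CPM. Other members had smaller cases of the same kind: 1 AT2 nucleus of that library held 29 of its 40 AT2 Plaur UMIs, 1 alveolar fibroblast of PBS_NVP lung 3 held 21 of 58 fibroblast Plat UMIs, 1 ciliated nucleus of Bleo_NVP lung 2 held 19 of 20 Plaur UMIs, and 1 B cell nucleus of Bleo_vehicle lung 3 held 14 of 19 Plat UMIs.

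In AT2 cells Serpine2 was higher after bleomycin, the only change of a member that passed the test. It stood at 16.7, 17.0 and 18.8 CPM in the 3 PBS_vehicle lungs and at 39.3, 39.2 and 49.7 CPM in the 3 Bleo_vehicle lungs. Every Bleo_vehicle lung was above every PBS_vehicle lung, and the log2 change was 1.46 ± 0.35 (SE; edgeR quasi-likelihood test, adjusted p = 0.0264 over 6153 genes). Of these genes, 2.16% were called higher in AT2 cells. In the 9 classes beside fibroblasts that could be fitted, this was 1 of 10 tests of a member, against 3.26% of all gene tests there. DESeq2 also called 1 of these 10, and 4 had an unadjusted p under 0.05, counts given without a share over all genes. The values rested on 36, 7 and 7 UMIs in the PBS_vehicle lungs and 11, 41 and 266 UMIs in the Bleo_vehicle lungs.

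With the inhibitor after bleomycin, Serpine2 in AT2 cells was at 27.7, 34.1 and 11.04 CPM in the 3 Bleo_NVP lungs, all below the Bleo_vehicle lungs. The log2 difference of Bleo_NVP minus Bleo_vehicle was -0.90 ± 0.36, with an edgeR adjusted p of 0.168, which did not pass. The PBS_NVP lungs were at 22.9, 34.4 and 21.2 CPM, all above the PBS_vehicle lungs, by 0.57 ± 0.37 on the log2 scale (edgeR unadjusted p = 0.145, not called after adjustment). The interaction, that is the effect of the inhibitor after bleomycin minus its effect after PBS, was -1.47 ± 0.52 (edgeR adjusted p = 0.301). Hence Bleo_vehicle was the highest group, but only its difference from PBS_vehicle passed.

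**Figure D3:**
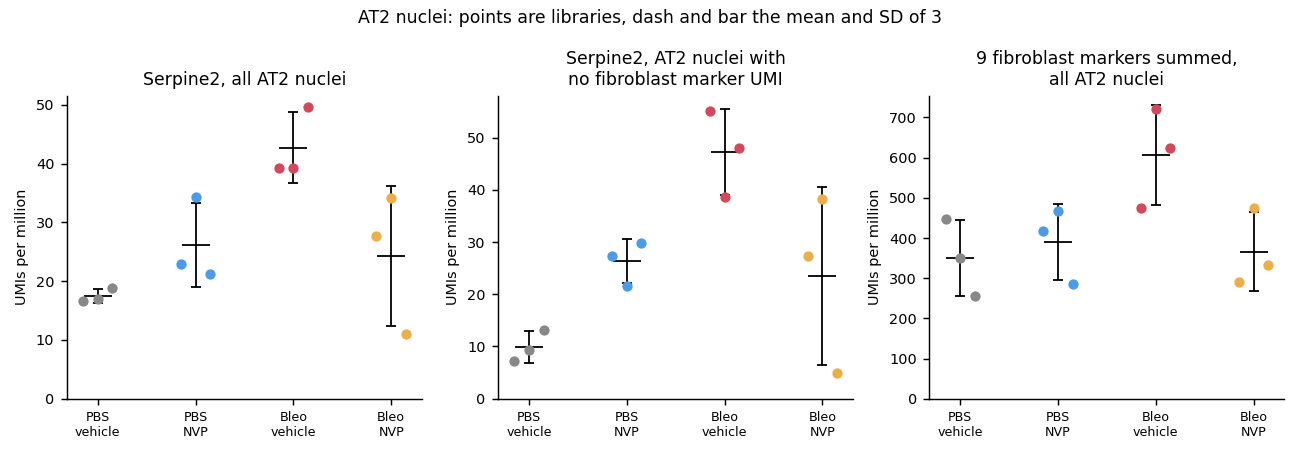
AT2 nuclei by group: Serpine2 in all AT2 nuclei, Serpine2 in AT2 nuclei without a UMI of 9 fibroblast markers, and the summed level of those 9 markers, each in CPM; points are libraries, dashes and bars the mean and SD of 3. The Bleo_vehicle lungs lie above the PBS_vehicle lungs in all 3 panels, at 39.2 to 49.7 against 16.7 to 18.8 CPM in the first. The second panel rests on few UMIs and was not tested.

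Markers of fibroblasts, the class highest in Serpine2, moved with this result. The 9 fibroblast markers, none of them at 0, summed to 255 to 446 CPM in AT2 nuclei of PBS_vehicle lungs, 286 to 467 CPM in PBS_NVP, 475 to 721 CPM in Bleo_vehicle and 289 to 476 CPM in Bleo_NVP. In AT2 nuclei without a UMI of these markers, 25.4% to 71.4% of a library's AT2 nuclei, Serpine2 was at 7.26, 9.33 and 13.2 CPM in the PBS_vehicle lungs and 55.1, 38.6 and 47.9 CPM in the Bleo_vehicle lungs. These 2 groups did not overlap there either. The PBS_vehicle values rest on few UMIs, at most the 36, 7 and 7 Serpine2 UMIs of all AT2 nuclei of those lungs. The gene fell under the filter on low counts in that subset, so it was not tested. Serpine2 UMIs for every 100 fibroblast-marker UMIs ranged from 3.31 to 9.57 in AT2 nuclei, and from 1.36 to 3.25 in fibroblasts of 11 libraries with 8.65 in Bleo_vehicle lung 1. The call was lost (adjusted p from 0.0697 to 0.129) when any 1 PBS_vehicle lung or Bleo_vehicle lung 2 was left out. It held without Bleo_vehicle lung 1 (1.502 ± 0.364, edgeR adjusted p = 0.0266).

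In whole lung, where all kept nuclei of a library were summed, 0 of the 4 members were called in any comparison. In such a sum, fewer cells of a type and less RNA in each cell cannot be told apart. Between Bleo_vehicle and PBS_vehicle, edgeR called 2.44% of 14442 genes (1.84% higher and 0.595% lower), and 2 of the 4 members had an unadjusted p under 0.05. Between Bleo_NVP and Bleo_vehicle it called 5.51% (1.96% higher and 3.55% lower), and 1 member had an unadjusted p under 0.05. DESeq2 called 1 member, Plaur, in each of these comparisons. Shares of all genes for DESeq2 and for an unadjusted p under 0.05 are not given, so these counts have no baseline. The interaction was called in 0.298% of genes.

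Plaur in whole lung stood at 45.7, 34.7 and 26.9 CPM in the PBS_vehicle lungs, 45.5, 47.8 and 36.4 CPM in PBS_NVP, 86.8, 57.4 and 41.4 CPM in Bleo_vehicle and 28.7, 39.9 and 31.6 CPM in Bleo_NVP. Bleo_vehicle lung 1 was highest, Bleo_vehicle lung 3 lay under a PBS_vehicle lung, and every Bleo_NVP lung was below every Bleo_vehicle lung. The log2 change was 0.85 ± 0.27 for Bleo_vehicle minus PBS_vehicle (edgeR adjusted p = 0.113) and -0.87 ± 0.27 for Bleo_NVP minus Bleo_vehicle (edgeR adjusted p = 0.0753). Neither passed. Without Bleo_vehicle lung 3 both did, at 1.10 ± 0.23 and -1.11 ± 0.23 (edgeR adjusted p = 0.0192 and 0.0138). Without Bleo_vehicle lung 1 they were 0.50 ± 0.22 and -0.52 ± 0.22 (edgeR adjusted p = 0.355 and 0.223). Alveolar macrophages, the class highest in Plaur, made up 5.19% to 8.20% of nuclei in the PBS_vehicle lungs, 8.84% to 19.1% in Bleo_vehicle and 6.16% to 7.74% in Bleo_NVP.

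Within alveolar macrophages themselves Plaur did not separate Bleo_vehicle from PBS_vehicle. It stood at 195, 343 and 283 CPM in the PBS_vehicle lungs, 201, 232 and 260 CPM in Bleo_vehicle and 325, 382 and 267 CPM in Bleo_NVP. The Bleo_vehicle lungs fell inside the PBS_vehicle range, with a log2 difference of -0.12 ± 0.28 (edgeR adjusted p = 0.876). The Bleo_NVP lungs were all above the Bleo_vehicle lungs, by 0.41 ± 0.28 on the log2 scale (edgeR adjusted p = 0.440). In aerocytes, second in Plaur, the 3 Bleo_vehicle lungs were at 186, 187 and 128 CPM and the 3 Bleo_NVP lungs at 106, 105 and 83.9 CPM, without overlap (-0.77 ± 0.34, edgeR adjusted p = 0.353). In interstitial macrophages or monocytes the PBS_vehicle libraries with enough nuclei gave 11.9 and 44.7 CPM, from 2 UMIs each, and the Bleo_vehicle libraries 144, 140 and 116 CPM (2.86 ± 0.98, edgeR adjusted p = 0.184).

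In fibroblasts, where Plaur is lowest, it was at 4.22, 4.12 and 1.81 CPM in the PBS_vehicle lungs, 4.58, 6.14 and 0.60 CPM in PBS_NVP, 33.9, 8.94 and 5.43 CPM in Bleo_vehicle and 0.95, 2.72 and 1.83 CPM in Bleo_NVP. The Bleo_vehicle lungs overlapped neither the PBS_vehicle nor the Bleo_NVP lungs. The log2 change was 1.91 ± 0.71 after bleomycin (edgeR adjusted p = 0.150) and -2.63 ± 0.83 for Bleo_NVP minus Bleo_vehicle (edgeR adjusted p = 0.0681). The counts behind these were from 1 to 49 UMIs a library. Without Bleo_vehicle lung 3 both passed (2.44 ± 0.66 and -3.18 ± 0.75, edgeR adjusted p = 0.0286 and 0.0143), and without Bleo_vehicle lung 1 they were 0.95 ± 0.56 and -1.68 ± 0.66 (edgeR adjusted p = 0.449 and 0.156).

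Macrophage markers moved with fibroblast Plaur. The 17 markers of both macrophage classes, none of them at 0, summed to 7.25 to 23.6 CPM in fibroblasts of PBS_vehicle lungs, 8.44 to 26.7 CPM in PBS_NVP, 72.8 to 165 CPM in Bleo_vehicle and 12.8 to 16.1 CPM in Bleo_NVP. Among fibroblasts without a UMI of these markers, Plaur was at 25.4, 8.81 and 5.77 CPM in the Bleo_vehicle lungs and 4.37, 4.31 and 1.26 CPM in the PBS_vehicle lungs. The log2 changes there were 1.64 ± 0.70 and -2.60 ± 0.85 (edgeR adjusted p = 0.24 and 0.0847), close in size to those over all fibroblasts.

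In fibroblasts 3 members passed the filter on low counts and Plau, with 3 UMIs, did not. None of the 3 was called, while edgeR called 4.69% of 10531 genes between Bleo_vehicle and PBS_vehicle (3.58% higher and 1.11% lower), 7.56% between Bleo_NVP and Bleo_vehicle (2.86% higher and 4.7% lower) and 0.332% for the interaction. In each of these 3 comparisons 1 member, Plaur, had an unadjusted p under 0.05, and DESeq2 called 1 member in each of the first 2. Neither count has a share over all genes beside it.

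Serpine2 in fibroblasts was at 80.1, 46.2 and 100.3 CPM in the PBS_vehicle lungs, 79.3, 77.5 and 118.9 CPM in PBS_NVP, 253, 61.4 and 99.9 CPM in Bleo_vehicle and 96.6, 74.7 and 111.9 CPM in Bleo_NVP. All groups overlapped, and Bleo_vehicle lung 1 stood far above the rest. The log2 change was 0.79 ± 0.46 after bleomycin and -0.38 ± 0.46 for Bleo_NVP minus Bleo_vehicle (edgeR adjusted p = 0.397 and 0.666). Without the peribronchial nucleus described above, and the top nucleus of each other member, these were 0.37 ± 0.32 and 0.03 ± 0.32. In whole lung Serpine2 was at 26.7, 24 and 39.4 CPM in the PBS_vehicle lungs, 27.6, 41.1 and 40.6 CPM in PBS_NVP, 64.6, 33.6 and 35.8 CPM in Bleo_vehicle and 34.6, 38.7 and 38.1 CPM in Bleo_NVP. The change after bleomycin was 0.63 ± 0.30 (edgeR adjusted p = 0.291), or 0.34 ± 0.24 without that nucleus.

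**Figure D4:**
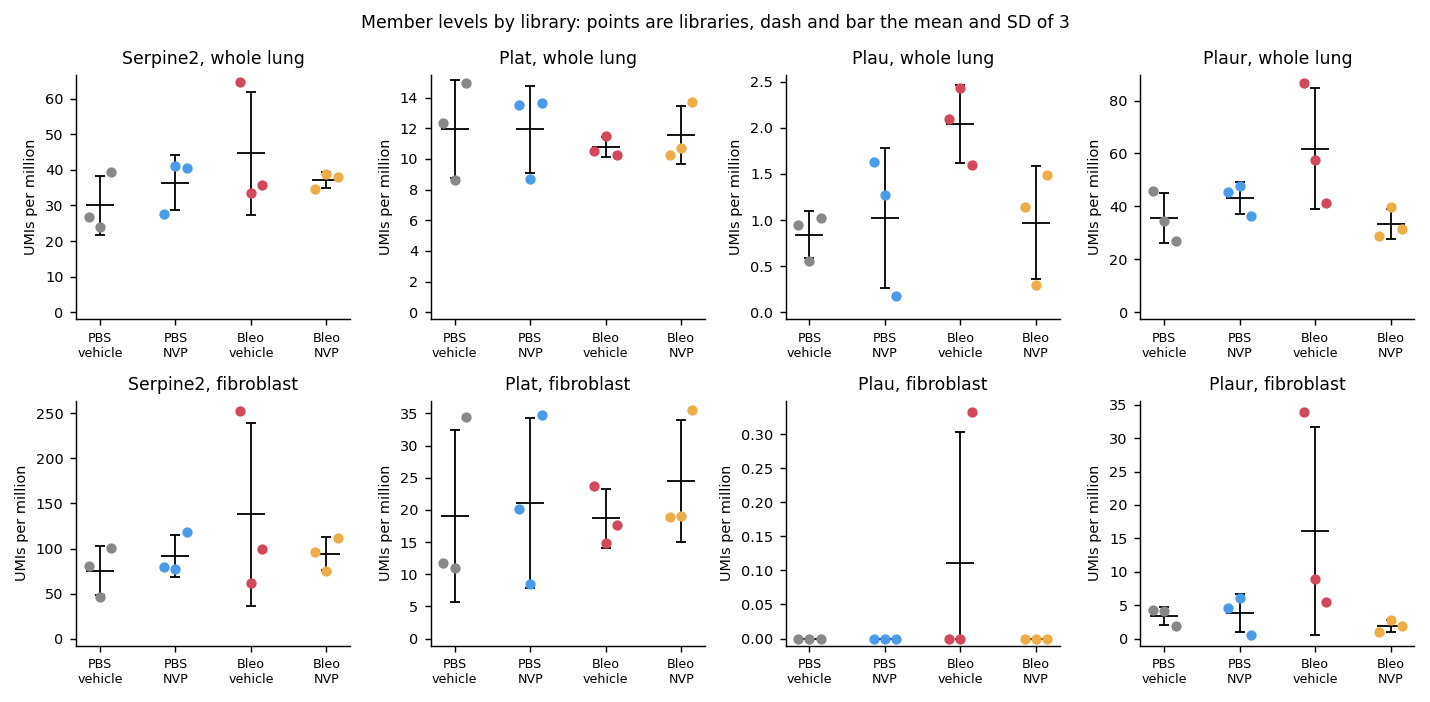
Level of each gene by group in whole lung (top) and in fibroblasts (bottom), in CPM; points are libraries in the order 1 to 3, dashes and bars the mean and SD of 3, with the lower end of a bar cut at 0. Bleo_vehicle lung 1 is the highest point for Serpine2 and Plaur, at 253 and 33.9 CPM in fibroblasts, and Plat differs little between groups.

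Plat gave no difference between groups that passed the test. In whole lung it was at 12.4, 8.60 and 14.96 CPM in the PBS_vehicle lungs, 13.5, 8.67 and 13.6 CPM in PBS_NVP, 10.5, 11.5 and 10.3 CPM in Bleo_vehicle and 10.2, 10.7 and 13.7 CPM in Bleo_NVP. All groups overlapped, with a log2 change of -0.09 ± 0.24 after bleomycin and 0.13 ± 0.24 for Bleo_NVP minus Bleo_vehicle (edgeR adjusted p = 0.881 and 0.773). In fibroblasts the group means were 19.1 ± 13.3, 21.1 ± 13.2, 18.7 ± 4.57 and 24.5 ± 9.52 CPM (PBS_vehicle, PBS_NVP, Bleo_vehicle and Bleo_NVP, n = 3 each), and the changes were -0.07 ± 0.53 and 0.57 ± 0.53. In general capillary endothelium, the only other class where it could be tested, Plat was at 46.5, 24.1 and 44.6 CPM in PBS_vehicle and 39.8, 18.1 and 21.1 CPM in Bleo_vehicle (-0.66 ± 0.42, edgeR adjusted p = 0.493).

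Plau could be tested in whole lung alone. It was at 0.94, 0.55 and 1.02 CPM in the PBS_vehicle lungs, 1.63, 1.27 and 0.17 CPM in PBS_NVP, 2.10, 2.43 and 1.59 CPM in Bleo_vehicle and 1.14, 0.29 and 1.49 CPM in Bleo_NVP. Every Bleo_vehicle lung was above every PBS_vehicle and every Bleo_NVP lung. The log2 change was 1.32 ± 0.60 after bleomycin and -1.09 ± 0.64 for Bleo_NVP minus Bleo_vehicle (edgeR adjusted p = 0.262 and 0.296), and neither passed. Interstitial macrophages or monocytes, which held the most Plau UMIs, made up 0.848% to 1.44% of nuclei in the PBS_vehicle lungs, 3.37% to 6.05% in Bleo_vehicle and 1.03% to 2.06% in Bleo_NVP. Their Plau UMIs numbered 2, 17 and 34 in the 135, 213 and 477 such nuclei of the Bleo_vehicle lungs. They numbered 0, 0 and 1 in 31, 35 and 16 nuclei of PBS_vehicle, and 1, 0 and 0 in 12, 43 and 20 nuclei of Bleo_NVP. In Bleo_vehicle lung 3, 1 nucleus held 7 of the 34. As the numbers of nuclei differ, these UMIs are not levels.

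**Figure D5:**
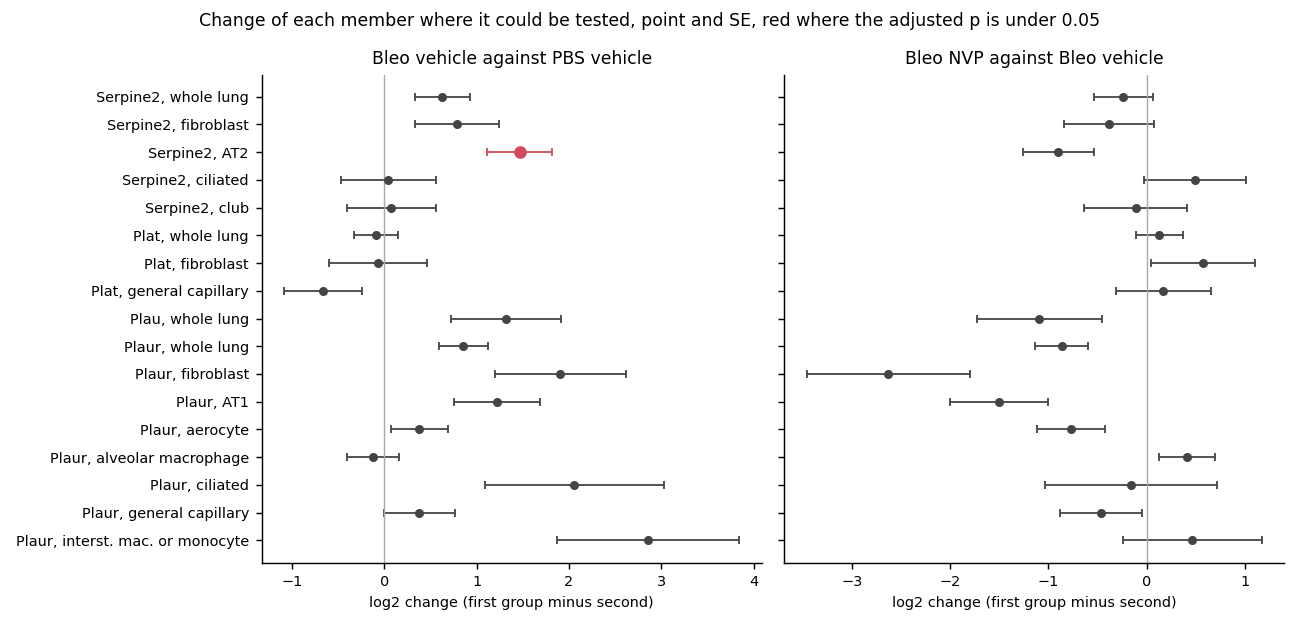
Log2 change of each gene wherever it could be tested, Bleo_vehicle minus PBS_vehicle (left) and Bleo_NVP minus Bleo_vehicle (right); points are edgeR estimates, bars their SE, red an adjusted p under 0.05. Serpine2 in AT2 cells (1.46 ± 0.35, left) is the only red point.

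For the other classes Plaur could be tested in 6 of 9, Serpine2 in 3, Plat in 1 and Plau in 0. Plaur changes ran from -0.12 to 2.86 after bleomycin (edgeR adjusted p from 0.173 to 0.926) and from -1.502 to 0.46 for Bleo_NVP minus Bleo_vehicle (edgeR adjusted p from 0.0948 to 0.958), the lowest of them in AT1 cells. Over all these classes edgeR called 3.79% of gene tests between Bleo_NVP and Bleo_vehicle and 0.294% for the interaction, and none of the 10 member tests, of which 3 and 2 had an unadjusted p under 0.05. DESeq2 called 1 and 0 of them. Shares of all gene tests for DESeq2 and for unadjusted p are not given.

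No member passed the test for the inhibitor on its own, or for bleomycin under the inhibitor. In PBS_NVP against PBS_vehicle, edgeR called 0 of the 14442 genes in whole lung, 0 in fibroblasts and 0 in the other classes, with 0 member tests at an unadjusted p under 0.05 and 0 called by DESeq2. In Bleo_NVP against PBS_NVP it likewise called 0 in each, and DESeq2 called 0 members. The comparisons share control lungs, so the values above are given side by side and no correlation is drawn between them.

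Around the members stand 31 other genes of the pathway, listed as the zymogen, inhibitors, surface binding proteins, uptake receptors, activating proteases and the thrombin and tissue factor group. In whole lung 22 could be tested. After bleomycin 2 rose and 0 fell, where 2.44% of all genes were called, with a list median of 0.77 on the log2 scale beside 0.01 over all genes tested. In Bleo_NVP against Bleo_vehicle 0 rose and 5 fell, where 5.51% of all genes were called, with a median of -0.97 beside -0.05. In fibroblasts, of 17 tested, 2 rose after bleomycin (median 0.61 beside -0.01, with 4.69% of all genes called) and 4 were lower in Bleo_NVP than in Bleo_vehicle (median -0.86 beside -0.02, with 7.56% of all genes called). Over the 9 other classes, 67 tests of 19 genes gave 10 higher after bleomycin, from 6 genes. They gave 10 lower in Bleo_NVP than in Bleo_vehicle, from 5 genes, and none in the other direction. Of all gene tests, 3.26% and 3.79% were called. Tests of the same gene in several classes share the same lungs, and the list was chosen with earlier results of these data known. Its counts and medians are therefore a description only.

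Among the proteases that activate the zymogens, Ctsb, the lysosomal cysteine protease cathepsin B, rose in whole lung from 26.2 ± 9.02 to 65.9 ± 7.65 CPM after bleomycin (1.39 ± 0.21, edgeR adjusted p = 0.00804) and stood at 20.7 ± 1.17 CPM in Bleo_NVP (-1.65 ± 0.22, edgeR adjusted p = 0.00280). The 3 Bleo_vehicle lungs overlapped neither group. The rise was lost without PBS_vehicle lung 2 or 3 (adjusted p up to 0.0534). It was also called in fibroblasts (16.5 to 38.4 CPM, 1.15 ± 0.30), alveolar macrophages (58.9 to 159 CPM, 1.35 ± 0.27), AT2 cells (31.3 to 82.1 CPM, 1.35 ± 0.36) and general capillary endothelium (16.1 to 62.1 CPM, 1.94 ± 0.43). In general capillary endothelium it fell to 5.11 CPM in Bleo_NVP (-3.53 ± 0.60, edgeR adjusted p = 0.00276). Macrophage markers moved with Ctsb outside macrophages, summing to 13.4 to 34.3 CPM in PBS_vehicle, 98.2 to 136 CPM in Bleo_vehicle and 13.7 to 30.4 CPM in Bleo_NVP AT2 nuclei, and to 20.3 to 40.6, 136 to 242 and 23.3 to 37.2 CPM in general capillary nuclei, and their part was not tested in these classes. The AT2 rise of Ctsb was called in 2 of 12 fits with a library left out, and in AT2 nuclei without a UMI of the fibroblast markers it was not called (0.74 ± 0.41, edgeR adjusted p = 0.402).

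Of the inhibitors, Serpini1, which encodes neuroserpin, an inhibitor of tissue-type activator, was lower in Bleo_NVP fibroblasts at 3.40 ± 2.16 against 12.5 ± 2.30 CPM (-1.65 ± 0.47, edgeR adjusted p = 0.0474). The call held in 2 of 12 fits with a library left out (edgeR adjusted p up to 0.143). It was also lost with only the compared libraries in the fit and under the stricter nucleus filter.

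Of the surface binding proteins on the list, Anxa2, S100a10 and Itgb2 were called in at least 1 fit. Anxa2 and S100a10 encode the 2 chains of a complex that holds plasminogen and tissue-type activator at the cell surface. Anxa2 rose in AT2 cells from 88.1 ± 14.1 to 241 ± 131 CPM after bleomycin (1.46 ± 0.31, edgeR adjusted p = 0.0160) and stood at 98.0 ± 12.2 CPM in Bleo_NVP (-1.31 ± 0.32, edgeR adjusted p = 0.0341). In AT2 nuclei without a UMI of the fibroblast markers the rise was called (1.81 ± 0.47, edgeR adjusted p = 0.0455) and the second difference was not (-1.50 ± 0.48, edgeR adjusted p = 0.107). S100a10 rose in AT1 cells from 7.996 ± 1.30 to 40.0 ± 30.2 CPM (2.33 ± 0.51, edgeR adjusted p = 0.0249) and stood at 8.08 ± 3.34 CPM in Bleo_NVP. In both, the Bleo_vehicle lungs overlapped neither group. S100a10 was also called in whole lung, at 10.6 ± 2.14 CPM in PBS_vehicle, 25.9 ± 9.90 CPM in Bleo_vehicle and 9.25 ± 1.26 CPM in Bleo_NVP (1.33 ± 0.27 and -1.46 ± 0.28, edgeR adjusted p = 0.0286 and 0.0152). Anxa2 was lower in Bleo_NVP AT1 cells too, at 144 ± 8.01 against 284 ± 117 CPM (-0.97 ± 0.24, edgeR adjusted p = 0.0295). Itgb2, the leukocyte integrin chain of a plasminogen-binding receptor, was lower in Bleo_NVP whole lung at 6.56 ± 1.30 against 23.1 ± 10.6 CPM (-1.77 ± 0.42, edgeR adjusted p = 0.0341). Macrophages moved with the whole-lung changes: alveolar macrophages made up 8.84% to 19.1% of nuclei in Bleo_vehicle against 6.16% to 7.74% in Bleo_NVP, and interstitial macrophages or monocytes 3.37% to 6.05% against 1.03% to 2.06%, and their part was not tested.

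Of the uptake receptors, Mrc1, the macrophage mannose receptor, showed the largest changes. In fibroblasts it went from 4.12 ± 1.32 to 45.8 ± 44.0 CPM after bleomycin (3.28 ± 0.60, edgeR adjusted p = 0.0102) and to 3.23 ± 0.42 CPM in Bleo_NVP (-3.56 ± 0.67, edgeR adjusted p = 0.00914). The first of these was lost without PBS_vehicle lung 2. It was also called in AT1, ciliated and general capillary cells in both comparisons. Summed macrophage markers moved with it in ciliated cells (124 to 133 CPM in PBS_vehicle against 248 to 490 CPM in Bleo_vehicle) and general capillary endothelium (20.3 to 40.6 against 136 to 242 CPM), and less in AT1 cells (94.4 to 131 against 136 to 150 CPM), and their part was not tested there. Among fibroblasts without a UMI of those markers, Mrc1 was still called in both comparisons (2.98 ± 0.67 and -3.38 ± 0.75, edgeR adjusted p = 0.0306 and 0.0229), and Ctsb after bleomycin (1.10 ± 0.29, edgeR adjusted p = 0.0488).

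Lrp1, the receptor that takes up activator and inhibitor complexes, was lower in Bleo_NVP than in Bleo_vehicle, at 134 ± 16.4 against 306 ± 30.4 CPM in fibroblasts (-1.07 ± 0.27, edgeR adjusted p = 0.0310) and 63.4 ± 6.86 against 169 ± 59.2 CPM in whole lung (-1.40 ± 0.32, edgeR adjusted p = 0.0270). F3, tissue factor, the start of the clotting cascade, was lower in the same comparison, at 8.36 ± 3.77 against 23.5 ± 4.35 CPM in fibroblasts (-1.26 ± 0.33, edgeR adjusted p = 0.0326). In each the 2 groups did not overlap. Mrc2, an endocytic receptor that binds the urokinase receptor, was lower in Bleo_NVP AT2 cells at 32.0 ± 10.0 against 76.9 ± 17.2 CPM (-1.31 ± 0.34, edgeR adjusted p = 0.0376). Fibroblast markers in AT2 nuclei moved the same way, as given above, and in AT2 nuclei without a UMI of them Mrc2 was no longer called (-1.30 ± 0.48, edgeR adjusted p = 0.143). Igf2r, a sorting receptor of lysosomal enzymes, rose in AT1 cells after bleomycin from 43.5 ± 4.45 to 76.0 ± 16.6 CPM (0.85 ± 0.21, edgeR adjusted p = 0.0412). This rise was called in 5 of 12 fits with a library left out (edgeR adjusted p up to 0.121). Of the 35 calls of the list over all fits and comparisons, 7 held whichever 1 library was left out and 28 were lost without at least 1 (adjusted p up to 0.203). The 7 were Mrc1 in AT1 and general capillary cells after bleomycin, Mrc1 in fibroblasts and Ctsb in whole lung and general capillary cells for Bleo_NVP against Bleo_vehicle, and Ctsb in alveolar macrophages in both comparisons. Of all 35, 4 were called under every alternative, namely the first 3 of these and Ctsb in whole lung. With the stricter nucleus filter of 500 UMIs or more and 1% mitochondrial UMIs or less, Ctsb was lost in alveolar macrophages (edgeR adjusted p = 0.145 and 0.0587) and in general capillary cells for Bleo_NVP against Bleo_vehicle (0.0511). In alveolar macrophages it was also lost without batch correction (edgeR adjusted p = 0.273 and 0.118).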

How the data were processed

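Single-nucleus RNA-seq was made by the authors from DAPI-sorted nuclei of 12 frozen mouse lungs (3 per group) with the 10x 3′ chemistry, and reads were aligned to mm10 with Cell Ranger. The 12 matrices the authors deposited hold counts, whole UMIs by gene and barcode and not normalized, with Ensembl identifiers paired with symbols. The file headers name Cell Ranger 7.2.0, while the submitters' processing notes name Cell Ranger 7.0 and Seurat 4.4.1. The study's own DecontX correction for free RNA and DoubletFinder calls were not rerun here.

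Nuclei with at least 200 and at most 6000 genes and at most 5% mitochondrial UMIs were kept, which left out 13, 96 and 1735 of 49163 barcodes. Of the remaining 47319, 2708 (5.72%) with the highest scrublet scores (scanpy 1.11.5, 0.8% per 1000 nuclei) were left out as doublets. Library effects were corrected with Harmony, and nuclei were clustered by the Leiden method (igraph 0.11.9, resolution 1) without the members and the pathway list. Clusters were named by marker lists. A name needed at least 3 markers, and the naming rule was set after clusters were seen. UMIs were summed per library and class, and levels are given in CPM of that sum. Classes with at least 20 nuclei in at least 2 libraries of every group were tested. The test was edgeR 4.0.16 in R 4.3.3 (filterByExpr, TMM, robust quasi-likelihood) over all groups, with Benjamini-Hochberg adjustment over all genes of a fit and a threshold of 0.05. Each mouse was 1 replicate. An exact permutation test of 3 against 3 cannot go below p = 0.1 and was not used.

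Members in every class were named, genes of the pathway list where called, and the 5 genes most like each member by Pearson r over classes on log2(CPM + 1), among genes of at least 10 CPM in a class without predicted genes. Some genes that these rules name are not reported here, though counts of the list include them. The members and lists were chosen with earlier results of these data known. Fibroblast counts over 10330 genes were simulated with the same spread for every gene and no outlying lung. For Bleo_NVP against Bleo_vehicle the test then recovered 34 of 100 genes changed 2-fold and 88 of 100 changed 4-fold, with 5 false calls. These shares need not hold for genes of wider spread. DESeq2 1.42.0, other scalings and filters, each library left out, and a block on replicate number were tried as alternatives. Leaving out single nuclei or nuclei with markers of another class was added after seeing the data. GEO's replicate numbers were checked for pairing. Libraries with the same number in PBS_NVP and PBS_vehicle deviated together (correlations of 0.637 to 0.883 over 8510 genes). In no other pair of groups were all 3 correlations over 0.1.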

Additional observations from a re-analysis of the deposited data

Results flagged for a closer look

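The inhibitor's effect on Ctsb, the lysosomal protease cathepsin B, differed between lungs given bleomycin and lungs given PBS by a test of the difference itself. In general capillary endothelium the log2 effect of NVP-BHG712 after bleomycin minus its effect after PBS was -3.71 ± 0.77 (edgeR adjusted p = 0.0361). In whole lung it was -1.68 ± 0.30 (edgeR adjusted p = 0.0451). With libraries left out in turn, the first was called in 5 of 12 fits (adjusted p up to 0.199) and lost without PBS_vehicle 2 or 3, PBS_NVP 1, Bleo_vehicle 2 or any Bleo_NVP lung. The second was called in 3 of 12 (up to 0.168), those without PBS_vehicle 1, PBS_NVP 3 or Bleo_vehicle 3. Both were also lost under a stricter nucleus filter (adjusted p = 0.289 and 0.116), and the first without batch correction (0.0557). Summed macrophage markers in general capillary nuclei were at 136 to 242 CPM in Bleo_vehicle, 20.3 to 40.6 CPM in PBS_vehicle, 30.5 to 48.1 CPM in PBS_NVP and 23.3 to 37.2 CPM in Bleo_NVP, and their part was not tested. In these comparisons the run cannot be told apart from bleomycin treatment. Among the bleomycin lungs it cannot be told apart from the inhibitor either.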

How the results depend on the processing

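Serpine2 in AT2 cells after bleomycin was called under 15 of 22 alternatives, with a log2 change of 1.32 to 1.54 and an adjusted p of 0.0102 to 0.129. It was lost with only the compared libraries in the fit (0.0530), with doublets kept (0.0627), under a stricter nucleus filter of 500 UMIs or more and 1% mitochondrial UMIs or less (0.0504), and without PBS_vehicle 1, 2 or 3 or Bleo_vehicle 2, so that 0 members were then called in the other classes. That count was also 0 among nuclei free of another class's markers, where Serpine2 was not tested, and 6 with no filter on low counts. With libraries left out it ran from 0 to 3, with 3 without Bleo_vehicle 3 and 2 without Bleo_NVP 2 or 3. For Bleo_NVP against Bleo_vehicle in the other classes 0 members were called, 1 by DESeq2, 2 with no filter, and 0 to 1 with libraries left out (1 without Bleo_vehicle 3). Shares of all genes called under the alternatives are not given, so these counts have no baseline.

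In whole lung 1 member, Plaur, was called by DESeq2 (adjusted p = 0.0467 and 0.0325) and with the replicate block (0.0499 and 0.0401) in both comparisons with Bleo_vehicle, against 0 in the edgeR test without a block, and 0 to 1 with libraries left out (1 without Bleo_vehicle 3). In fibroblasts 1 member, Plaur, was called by DESeq2 (0.0475 and 0.00911) and with the replicate block (0.0395 and 0.0221) in both, 1 with doublets kept for Bleo_NVP against Bleo_vehicle (0.0368), and 0 to 1 with libraries left out (1 without Bleo_vehicle 3 in both, and without PBS_NVP 3 in the second). With no filter the fibroblast counts were 2, 1 and, for the interaction, 1. These counts too stand without the share of all genes called under the same alternative. The replicate numbers pair the libraries of PBS_NVP and PBS_vehicle, where the block changed no call. For the other groups they share a number only.

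The following changes of a member turned direction in whole lung or fibroblasts, where no member was called. Leaving out single nuclei, or nuclei with markers of another class, was chosen after seeing the data. Without the top nucleus of each member, Serpine2 for Bleo_NVP against Bleo_vehicle was 0.026 in fibroblasts and 0.045 in whole lung. Plat in fibroblasts after bleomycin was 0.017 with the replicate block, 0.061 with doublets kept and 0.092 without macrophage-marker nuclei. Plat for PBS_NVP against PBS_vehicle was -0.20 in fibroblasts with run as a block, -0.17 without the top nucleus, and 0.028 in whole lung with doublets kept. Over libraries left out, Serpine2 in fibroblasts ran from -0.78 to 0.32 for Bleo_NVP against Bleo_vehicle, from -0.0070 to 0.40 for Bleo_NVP against PBS_NVP and from -1.04 to 0.066 for the interaction, and in whole lung from -0.42 to 0.14 and from -0.087 to 0.26 in the first 2. Plau ran from -0.073 to 0.76 for PBS_NVP against PBS_vehicle and from -0.72 to 0.36 for Bleo_NVP against PBS_NVP. Plaur in fibroblasts ran from -0.24 to 0.52 for PBS_NVP against PBS_vehicle. Plat in fibroblasts ran from -0.41 to 0.66 after bleomycin, from -0.40 to 0.85 for PBS_NVP against PBS_vehicle and from -0.30 to 0.97 for the interaction. Plat in whole lung ran from -0.26 to 0.12 after bleomycin, from -0.0075 to 0.20 for Bleo_NVP against Bleo_vehicle, from -0.20 to 0.19 for PBS_NVP against PBS_vehicle, from -0.085 to 0.19 for Bleo_NVP against PBS_NVP and from -0.055 to 0.32 for the interaction. The causes were not tested.

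Calls of the pathway list after bleomycin were 2 in whole lung (0 with only the compared libraries, 9 by DESeq2), 2 in fibroblasts (0 with only the compared libraries, 8 with no filter) and 10 in the other classes (5 in the strict nuclei, 41 with no filter). For Bleo_NVP against Bleo_vehicle they were 5 (3 to 11), 4 (1 to 8) and 10 (2 to 38). With Bleo_vehicle 3 left out, the list's calls were 9 and 11 in whole lung and 36 and 33 in the other classes, the highest counts over libraries left out. The share of all genes called under each alternative is not given, so a higher count is not read as a gain of the list. Under each of 5 alternative settings, the level of each of the 4 members in its highest class stayed within 1 SD of its mean. These were pooled UMIs, doublets kept, the stricter filter, no batch correction and doubled cluster resolution. With pooled UMIs the order changed for Plau, at 21.2 CPM in interstitial macrophages or monocytes and 16.5 CPM in lymphatic endothelium. Another scaling moved the median of all genes by at most 0.025. With 3 lungs a group, few UMIs of Plau and 1 to 49 fibroblast UMIs of Plaur a library, counts limit what could be called. The run cannot be told apart from bleomycin treatment, nor from the inhibitor among the bleomycin lungs.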
